A study of Arvicanthis niloticus with 28 samples.

Results

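Transcripts of the neurons of the inner retina were followed in RNA from the isolated retinal vasculature of 28 Nile rats (Arvicanthis niloticus). They comprised 29 genes of 18970 in the tables, chosen by name as markers of bipolar cells (11 genes), amacrine cells (7 genes), horizontal cells (4 genes) and ganglion cells (7 genes). All 29 were present in both the table of expected counts and the table of TPM (transcripts per 1000000, a level scaled by gene length). The rats were untreated and of wild-type genotype, and 1 library was made from each. Of these, 24 rats with an acellular capillary density of 5.90 to 14.5 counts per mm2 were normal (8 male, 16 female), and 4 male rats with 17.1 to 17.9 counts per mm2 were pre-dropout. Acellular capillaries are empty tubes of basement membrane, and density from 17 to 18 counts per mm2 stands just above the normal range, which ends below 16. Random blood glucose was above 200 mg/dL in 5 rats, which include the pre-dropout rats T389M and T391M. Diet and age were not used here, because the sample labels do not give them.

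Bipolar cells carry the signal of the photoreceptors inward to ganglion cells, whose axons form the optic nerve. Horizontal cells and amacrine cells shape that signal by lateral inhibition, mostly with GABA or glycine. The capillary beds of the retina run through the layers of these cells, so vessels have to be freed of neurons before their own RNA is measured. Here the neurons were lysed in water and squirted off the vessels, and the question for these genes was how much of their RNA stayed in the washed preparations and whether it followed capillary density or glucose.

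The libraries held RNA of vessel walls first. Cldn5, the tight junction protein of endothelial cells, had a median of 27392 TPM and Rgs5, a marker of pericytes, 6217 TPM. All 14 endothelial markers were counted in all 28 libraries, and so were 10 of 12 markers of pericytes and smooth muscle. Library totals ranged from 153111 to 10029207 expected counts with a median of 3781776, and 7485 to 16119 genes had a count of at least 1. T410F, the smallest library, and T448M lay below 1000000 counts. A count of 0 allows up to 3 counts of the total, which is 0.299 CPM (counts per 1000000) in the largest library and 19.6 CPM in the smallest. Such limits, and the intervals given for shares, cover counting error only.

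RNA of inner retinal neurons was present in all 28 washed preparations, at a low level. The 29 genes together took 0.0149% of the counts in T411M (95% Wilson interval 0.0136% to 0.0164%) and 0.243% in T404F (0.238% to 0.247%), with a median of 0.0764% over the rats. These shares include Rbpms, which smooth muscle also makes, so part of them may come from vessel walls. Of 812 values (29 genes in 28 libraries), 543 had a count of at least 1, and 449 still did when each library was thinned to 153111 counts. There were 23 genes with a count in at least 14 libraries, and 62.9% of all genes in the tables met that limit. Only Nefl and Nefm, the light and medium chains of neurofilaments, were counted in all 28 libraries, where 21.3% of all genes were. In this bulk RNA, fewer cells of a type and less RNA per cell cannot be told apart.

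**Figure D1:**
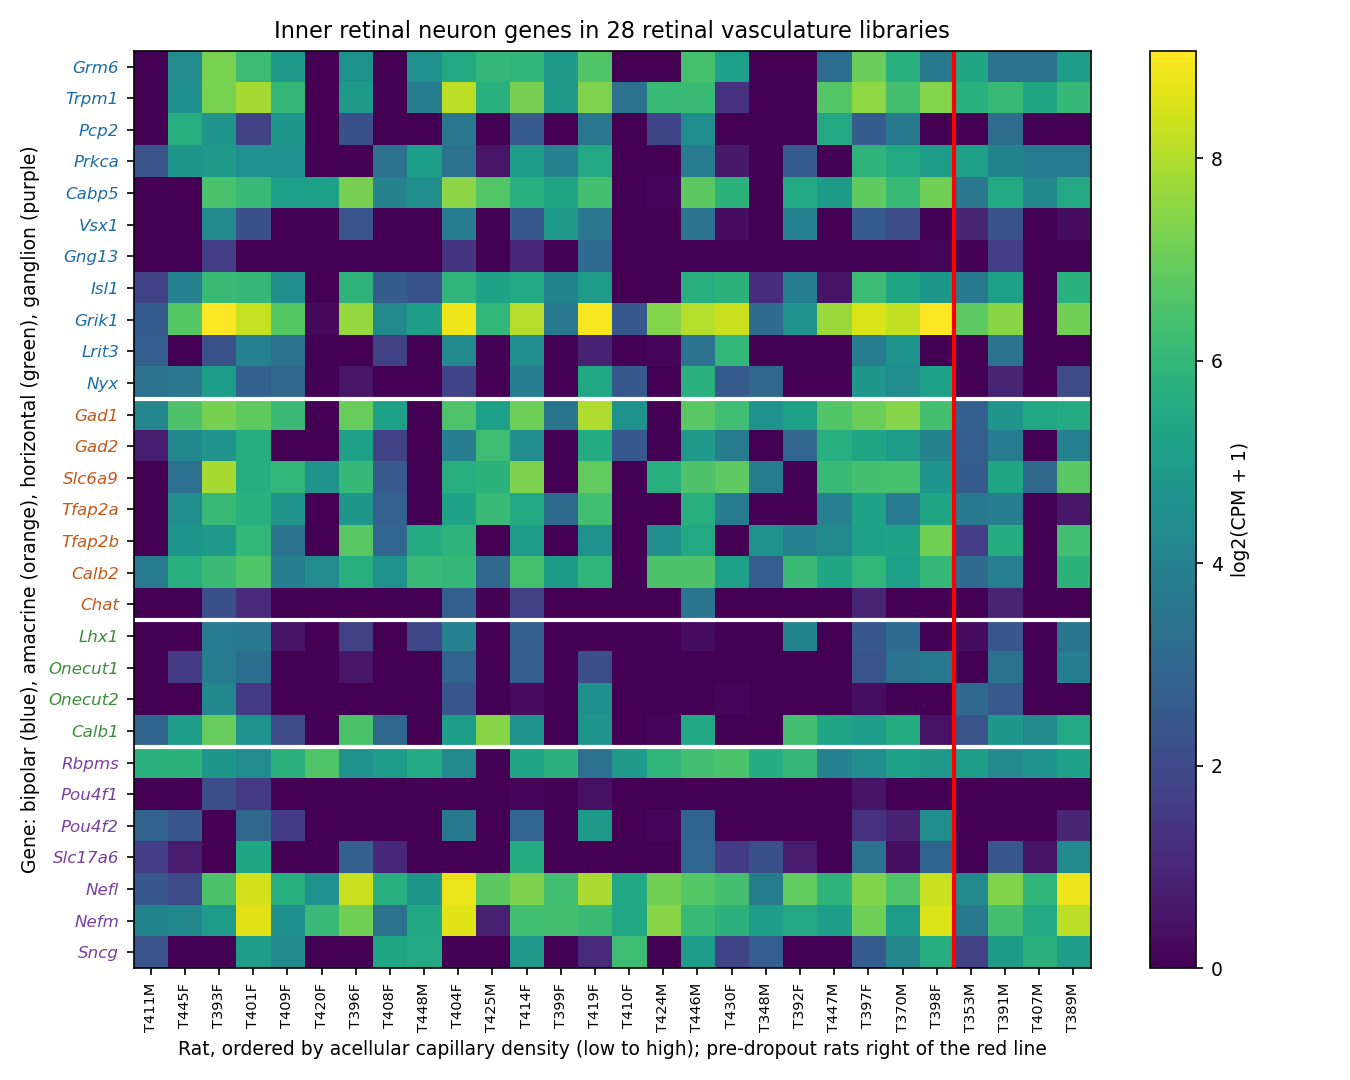
Level of the 29 genes (rows, coloured by cell class) in the 28 rats (columns, ordered by acellular capillary density), as log2(CPM + 1); the red line sets apart the 4 pre-dropout rats on the right. Whole columns are dark or bright across bipolar and amacrine genes, for example T420F with 7 of 29 genes counted and T414F with all 29.

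Bipolar genes were counted widely but unevenly. Of the 11, 10 had a count in at least 14 libraries and none in all, and the median of their median levels was 6.07 TPM. The highest was Cabp5, a calcium-binding protein of bipolar cells, at a median of 53.1 TPM (range 0 to 264) with a count in 24 libraries. It was followed by Grik1, the kainate receptor through which OFF bipolar cells sense glutamate, at 36.4 TPM (0 to 174) in 27 libraries. Isl1, a LIM homeodomain factor of ON bipolar cells that some amacrine and ganglion cells also use, stood at 22.2 TPM in 24 libraries. Genes of the ON bipolar cascade were lower: Trpm1, the cation channel at its end, had a median of 9.26 TPM in 23 libraries and Grm6, the glutamate receptor at its start, 4.93 TPM in 21. Nyx and Lrit3, leucine-rich repeat proteins needed at the same synapse, were counted in 18 and 14 libraries. Prkca, the kinase that marks rod bipolar cells, was counted in 22, Pcp2, a G protein modulator, in 14, and Vsx1, a homeodomain factor of cone bipolar cells, in 15. Gng13, the G protein gamma subunit of the cascade, was counted in 6. Its effective length, worked out here from the ratio of expected counts to TPM, was 7.77% of that of the median gene. The part of length in its detection was not tested.

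Amacrine genes reached higher levels, with a median over the 7 genes of 15.1 TPM. Calb2, which encodes calretinin, had the second highest median of the 29 genes, 68.1 TPM (0 to 180), and a count in 26 libraries. Gad1, which makes GABA, stood at 29.1 TPM (0 to 146) in 25 libraries, and its relative Gad2 at 9.91 TPM in 21. Slc6a9, the glycine transporter of glycinergic amacrine cells, had 15.1 TPM in 23 libraries. The AP-2 transcription factors Tfap2b and Tfap2a had 25.6 TPM in 21 libraries and 7.77 TPM in 20. Chat, which makes acetylcholine in the sparse starburst amacrine cells, was counted in only 7 libraries, at no more than 10.4 CPM. It had no count of at least 1 in the other 21.

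Horizontal genes were the least often counted. Calb1, calbindin, which amacrine cells also make, was counted in 22 libraries at a median of 9.55 TPM (0 to 49.4). The transcription factors that give horizontal cells their identity were sparse: Lhx1 was counted in 14 libraries, Onecut1 in 12 and Onecut2 in 9. Their highest levels were 15.98, 14.02 and 22.6 CPM.

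Ganglion genes split into widely counted and nearly absent ones. Nefl had the highest median of all 29 genes, 399.2 TPM (range 11.7 to 2278), and Nefm the third, 58.5 TPM (0.658 to 514). The effective length of Nefl was 16.04% of the median gene's, which raises its TPM for a given count. Rbpms, an RNA-binding protein used as a ganglion cell marker and also made by smooth muscle, stood at 45.5 TPM in 27 libraries. Sncg, gamma-synuclein, had 6.42 TPM in 18 libraries and Slc17a6, the vesicular glutamate transporter, 0.556 TPM in 16. The POU factors that define ganglion cells were the rarest: Pou4f2 was counted in 13 libraries and Pou4f1 in 5, the fewest of the 29 genes. Pou4f1 had an effective length of 3.33% of the median gene's and a highest level of 3.52 CPM. The leading medians overlapped widely between rats, so Calb2, Nefm, Cabp5 and Rbpms, in that order, did not stand apart beyond their ranges.

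Further markers of the same cells, set beside the 29, were present too. Of 19 other bipolar genes, 13 had a count in at least 14 libraries, led by Gnb3, the G protein beta subunit shared by cones and ON bipolar cells, at a median of 145 TPM, and Scgn, secretagogin, at 120 TPM. Of 18 other amacrine genes, 11 did, among them Pax6, a transcription factor of amacrine and ganglion cells, at 70.5 TPM. Of 6 other horizontal genes, 5 did, led by Tpm3 at 180 TPM and Sept4 at 63.7 TPM, both of which other cells also make. Of 15 other ganglion genes, 10 did, led by Ebf1 at 155 TPM and Jam2 at 101 TPM, which vessel cells also express. Synaptic genes of neurons in general were higher, with Syp, synaptophysin, at 1047 TPM and Stmn3 at 823 TPM. Photoreceptor RNA was present too, with Gngt1, a rod transducin subunit, at 378 TPM and Guca1a, a guanylate cyclase activator, at 58.0 TPM.

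Detection did not simply follow depth. T414F, with 9312649 counts, held all 29 genes, but T424M, the deepest library with 10029207 counts, held 13, and T420F, with 6552944 counts, held 7. The pre-dropout library of T391M held 27 genes at 3620099 counts. Over the 28 rats the number of genes counted had a Spearman rho of 0.47 with library total and 0.88 with the number of all genes counted, given as descriptions since these measures share the library. The 4 pre-dropout rats held 20 (T353M), 23 (T389M), 27 (T391M) and 12 genes (T407M), and the normal rats 7 to 29 with a median of 20. These ranges overlapped.

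**Figure D2:**
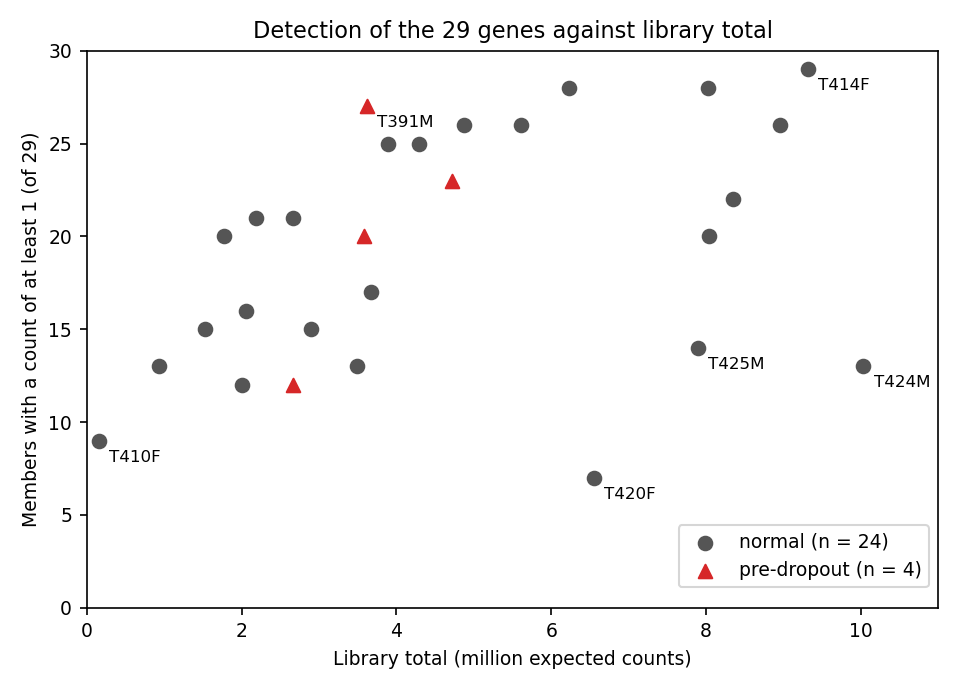
Number of the 29 genes with a count of at least 1 (vertical axis) against library total in units of 1000000 expected counts (horizontal axis), 1 point per rat. T424M (10029207 counts) and T425M (7894780 counts) held 13 and 14 genes, and T420F held 7.

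Many zeros stood in libraries deep enough to show the gene. In the 14 libraries at or above the median total (3896266 counts and more), 92 of 406 values were exactly 0. Of these, 28 belonged to genes whose median was at least 10 CPM where they were counted. In T424M, Grm6, Isl1 and Gad1 were at 0, with a floor of 0.299 CPM, while Grik1 was at 165 CPM, Nefl at 142 CPM and Calb2 at 89.9 CPM. In T420F, Gad1 and Trpm1 were at 0 and Grik1 at 0.154 CPM, while Cabp5 was at 35.5 CPM and Rbpms at 97.0 CPM, the highest of all rats. In T425M, Rbpms was at 0 and Calb1 at 173 CPM, its highest value. Genes of 1 cell class were thus present and absent side by side in 1 library.

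Such zeros were not particular to these neurons. Among the 18 of the 29 genes with a median of at least 10 CPM where counted and a count in at least 14 libraries, 11.1% of the values in the deep libraries were 0, against 5.76% for all 9696 genes meeting the same limits. The share was 16.1% for rod genes and 21.4% for cone genes, and no value was 0 for endothelial genes (14 genes) or for pericyte and smooth muscle genes (10 genes). Of 12 housekeeping genes looked at after these zeros were seen, 11 were counted in all 28 libraries, but Tbp, the TATA-binding protein that every cell uses, was at 0 in some and counted in 24. Whether a 0 of a neuronal gene reflects missing RNA or a failed estimate was not tested.

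The genes of bipolar and amacrine cells rose and fell together over the rats. For the 23 genes counted in at least 14 libraries, Spearman and Pearson correlations of log2(CPM + 1) were computed over the 28 rats for all 253 pairs, with two-sided permutation tests (100000 resamples, smallest possible p 1e-05) and Benjamini-Hochberg adjustment over the pairs. The Spearman correlation was above 0 in 219 pairs with a median of 0.42, and 130 pairs passed an adjusted p of 0.05. No share over pairs of other genes was set beside these counts, and the part of differences between libraries in them was not tested. All 45 pairs within bipolar genes were above 0 (median 0.51, 33 passed), and all 15 within amacrine genes (median 0.49, 10 passed). All 60 pairs of a bipolar with an amacrine gene were above 0 too, with a median of 0.54, and 42 passed. Pairs of a bipolar with a horizontal gene had a median of 0.42 (11 of 20 passed), and Lhx1 with Calb1, the only horizontal pair, had 0.52.

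The 5 closest pairs held only bipolar and amacrine genes. Grm6 and Isl1 had rho = 0.82 (permutation adjusted p = 0.00023) and r = 0.78 (adjusted p = 0.000843), and r was 0.72 without the 2 rats farthest from the median of Grm6. Trpm1 and Grik1, of ON and OFF bipolar cells, had rho = 0.81 (permutation adjusted p = 0.00023), r = 0.69 (adjusted p = 0.00241) and r = 0.58 without 2 rats. Cabp5 and Isl1 had rho = 0.81 (permutation adjusted p = 0.00023), r = 0.70 (adjusted p = 0.00221) and r = 0.77 without 2 rats. An amacrine gene entered the next pairs. Grm6 and Tfap2a had rho = 0.81 (permutation adjusted p = 0.00023), r = 0.79 (adjusted p = 0.000843) and r = 0.75 without 2 rats, and Gad2 and Tfap2a had rho = 0.79 (permutation adjusted p = 0.000337), r = 0.74 (adjusted p = 0.00105) and r = 0.70 without 2 rats.

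The 5 ganglion genes in these pairs did not move as a class. The median rho of their 10 pairs was 0.053, and 2 passed. The neurofilament genes Nefl and Nefm rose together, at rho = 0.77 (permutation adjusted p = 0.00023) and r = 0.62 (adjusted p = 0.00407), and Nefl had rho = 0.78 with bipolar Cabp5 (permutation adjusted p = 0.00023; r = 0.73, adjusted p = 0.000843). Sncg had no partner that passed among 22 genes. Rbpms ran the other way: 20 of its 22 correlations were below 0 and 5 passed, the lowest being Gad2 at rho = -0.57 (permutation adjusted p = 0.00714; r = -0.53, adjusted p = 0.00784).

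Rbpms instead followed some genes of the vessel wall. Against 26 endothelial, pericyte and smooth muscle genes, chosen after its negative values were seen, 14 rank correlations passed an adjusted p of 0.05, 13 of them above 0. The highest were Acta2, smooth muscle actin, at rho = 0.62 (permutation adjusted p = 0.00849; r = 0.51, permutation p = 0.00455) and Notch3, a receptor of mural cells, at rho = 0.60 (permutation adjusted p = 0.00849; r = 0.43, permutation p = 0.0173). Other contractile genes of smooth muscle did not follow Rbpms as Acta2 did. Myh11 had rho = 0.11, Cnn1 -0.20 and Tagln -0.36, and none of them passed. Kdr, a VEGF receptor of endothelial cells, ran the other way at rho = -0.43 (permutation adjusted p = 0.0442; r = -0.36, permutation p = 0.0601). The share of passing correlations over other genes was not worked out. Pearson values were smaller for most of these genes, for example r = 0.15 for Rgs5 at rho = 0.44 (permutation adjusted p = 0.0428 for rho; permutation p = 0.450 for r), so ranks and levels gave different pictures.

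**Figure D3:**
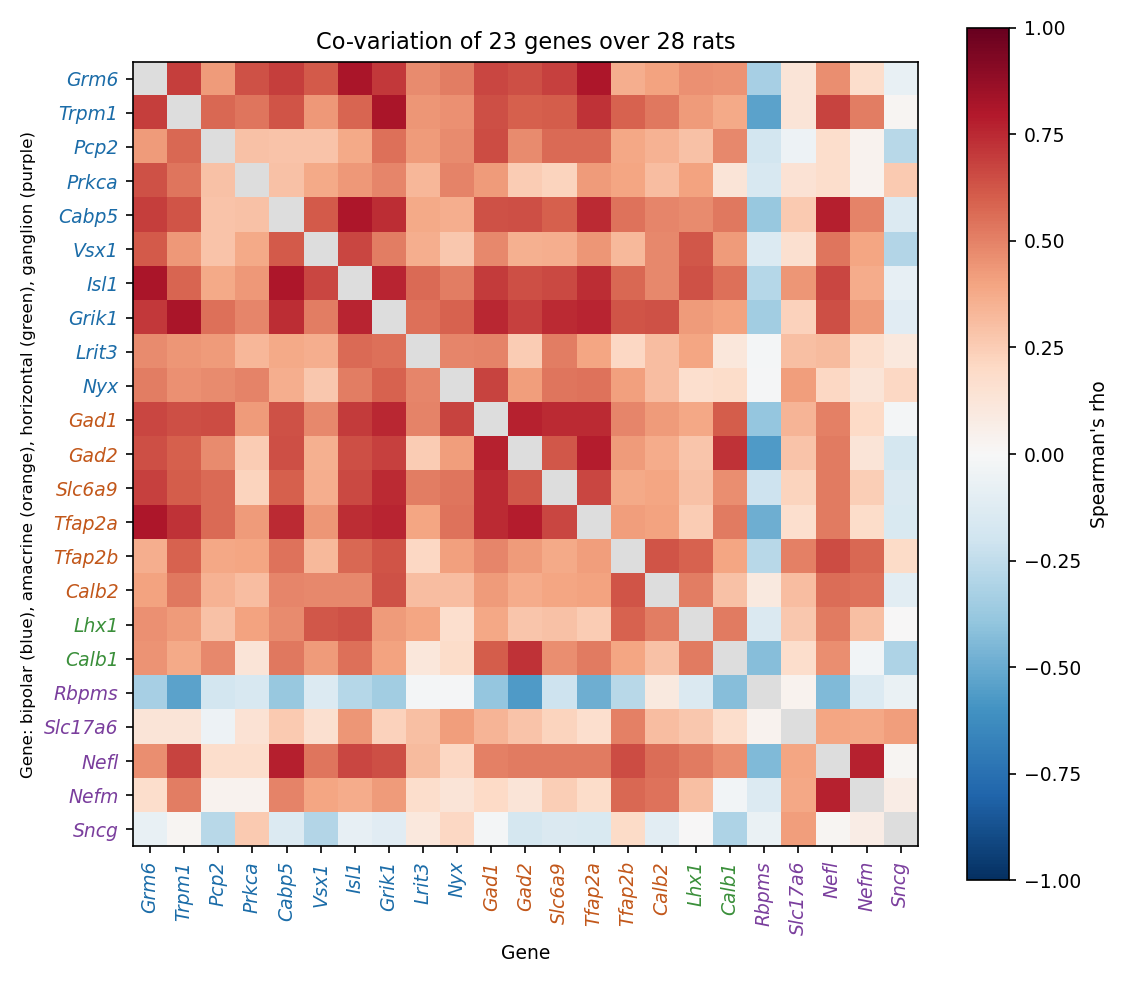
Spearman's rho over 28 rats for each pair of the 23 genes counted in at least 14 libraries (gene names coloured by class, red above 0, blue below 0). Bipolar and amacrine genes form one red block, while Rbpms is blue against 20 of its 22 partners and Sncg is near 0.

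A score per class, the mean log2(CPM + 1) of its genes, put the same pattern in a single value per rat. The bipolar score ranged from 0.49 (T420F) to 5.37 (T393F) and the amacrine score from 1.02 (T410F) to 5.62 (T446M). Over the 28 rats the bipolar score had rho = 0.86 with the amacrine score (0.88 in the 24 normal rats), 0.72 with the horizontal score and 0.52 with the ganglion score. The score of the 15 other ganglion genes had rho = 0.84 with both the bipolar and the amacrine score, and 0.64 with the ganglion score. These values are descriptions, since all genes of a rat share 1 library.

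Other cell types moved with these scores. The bipolar score had rho = 0.84 with 20 pan-neuronal genes, 0.65 with cone genes, 0.61 with genes of microglia and macrophages, 0.55 with genes of the retinal pigment epithelium, 0.50 with rod genes and 0.37 with genes of Müller glia and astrocytes. It was negative with the endothelial score (-0.59) and the pericyte and smooth muscle score (-0.60), at -0.27 with the erythrocyte score, and positive with the number of genes counted (0.72) and library total (0.45). The rod score ranged from 1.77 (T424M) to 7.55 (T370M), and Gngt1 was at 0 in some libraries. Of the 23 single genes, 22 passed an adjusted p of 0.05 for rho with the pan-neuronal score, 14 with the microglia and macrophage score, 13 with the cone score, 6 with the rod score and 1 with the score of Müller glia and astrocytes, and 22, 22, 22, 22 and 21 of the 23 values were above 0. With the pericyte and smooth muscle score 14 passed and with the endothelial score 10, and 1 of 23 values was above 0 for either. The genes that passed include Rbpms with the opposite sign for 3 scores. Its rho was -0.44 with the pan-neuronal score, -0.59 with the microglia and macrophage score and 0.55 with the pericyte and smooth muscle score. No share over other genes was set beside these counts, and the part of differences between libraries in them was not tested. Since CPM is a share of a total, more RNA of one source lowers the CPM of others, and the part of that in these values was not tested.

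**Figure D4:**
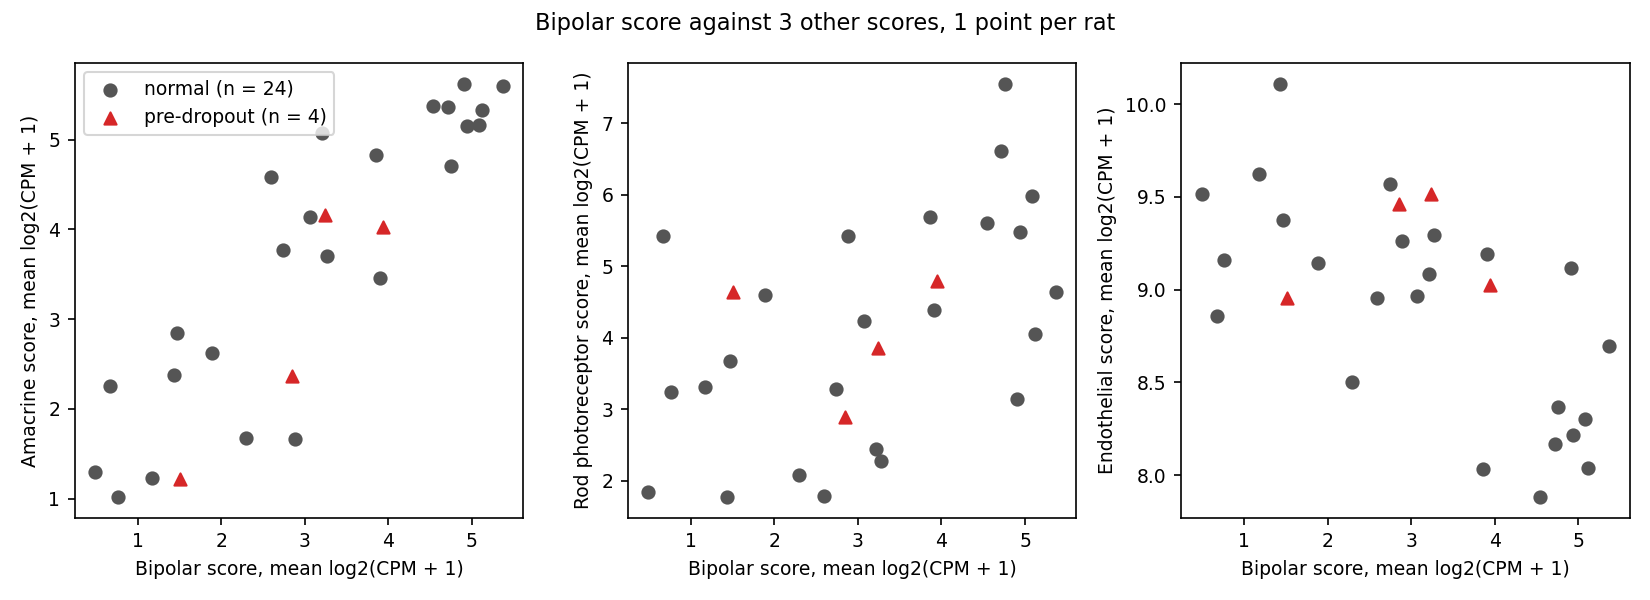
Bipolar score (horizontal axes) against the amacrine, rod photoreceptor and endothelial scores (vertical axes), each the mean log2(CPM + 1) of the list's genes, 1 point per rat. The points rise together for amacrine (rho 0.86), spread more for rod (0.50) and fall for endothelial (-0.59); the 4 pre-dropout rats lie within the range of the normal rats.

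Among 13773 other genes tested, those most like the bipolar score included several known from retinal neurons. They were led by Gabrr2, a GABA receptor subunit of bipolar cells (rho = 0.91), and Cacna2d4, a calcium channel subunit of photoreceptors and bipolar cells (0.90). Next came, among others, the glutamate receptor subunit Gria2, Cdhr1, the vesicle priming factor Cadps, Frem1, Adcy8, the calcium channel Cacna1f and the receptor Cntfr, at 0.87 to 0.89. The amacrine score was followed most closely by Cntfr (0.91), Stmn3, Tmem132d, Nrxn3 and the synaptic gene Snap25 (0.88 to 0.89). The genes closest to the horizontal score (Pold1, Ppm1j, Zfp566, Asb16 and Frmpd4, 0.81 to 0.83) and to the ganglion score (among them Ccdc173, Dnah1, Asphd1 and Pelp1, 0.76 to 0.79) were in none of the marker lists, and 7 of the 10 had a median under 0.01 TPM.

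In the vessel preparations of pre-dropout rats, no change in these genes was detected. By edgeR's quasi-likelihood F test with Benjamini-Hochberg adjustment, 27 of the 29 genes could be tested (not Gng13 and Pou4f1) and 0 passed both limits, an adjusted p below 0.05 and a change over 2-fold. The background share was the same, 0% of 13800 genes. At an unadjusted p under 0.05 there were 0 of the 27 genes, against 2.86% of all genes. DESeq2 and limma-voom called 0 of them as well, with 3 at an unadjusted p under 0.05 by each, and limma on log2(TPM + 1) called 0, with 1.

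Fold changes of bipolar and amacrine genes lay mostly below 0, and those of the few horizontal and ganglion genes were mixed. Of the 27 genes, 18 had a log2 fold change below 0, with a median of -0.62, beside 58.9% of all genes and a median of -0.13. The split was 9 of 10 bipolar genes (median -1.03), 6 of 7 amacrine genes (-1.37), 1 of 4 horizontal genes (0.30) and 2 of 6 ganglion genes (0.04). The further markers of the same cells did not share that split. Below 0 were 16 of 18 other bipolar genes (median -0.81), 12 of 16 other amacrine genes (-0.91), 4 of 5 other horizontal genes (-0.27) and 12 of 14 other ganglion genes (-0.86), with 1, 3, 0 and 2 of them at an unadjusted p under 0.05 and 0 called by edgeR. With DESeq2's size factors 23 of the 27 genes were below 0, with sex as a covariate 16 of 27 with a median of -0.37, and among males alone 13 of 22. Rods and cones stood on the same side, with 13 of 14 rod genes (median -0.79) and 11 of 12 cone genes (-0.86) below 0, as did 16 of 20 pan-neuronal genes (-0.59) and 10 of 12 genes of pericytes and smooth muscle (-0.43). The other way lay 13 of 14 endothelial genes (median 0.22), 3 of 3 erythrocyte genes (0.75) and 5 of 6 genes of the pigment epithelium (0.89), and genes of Müller glia and astrocytes were split, 7 and 7. Their part in the values was not tested.

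The leading genes showed how widely the rats varied. Cabp5 stood at 11.1 (T353M), 43.3 (T389M), 45.5 (T391M) and 17.2 CPM (T407M) in the pre-dropout rats and at 0 to 177 CPM in the normal rats, with a median of 47.8. Grik1 stood at 111, 138, 175 and 0 CPM in the same order, and at 0.154 to 533 CPM with a median of 181 in the normal rats. All pre-dropout values of both genes were below the normal medians, and all but the 0 of Grik1 lay within the normal ranges. The log2 fold changes were -1.08 (SE 1.02) for Cabp5 and -0.97 (SE 0.995) for Grik1, with adjusted p = 0.9999 by edgeR.

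Calb2 and Gad1, the amacrine genes of highest median TPM, had a lower mean CPM in pre-dropout than in normal rats. Calb2 was at 7.95, 56.3, 14.5 and 0 CPM in T353M, T389M, T391M and T407M, against 0 to 95.1 CPM with a median of 51.5 in the rats of normal density. The log2 fold change was -1.37 (SE 0.82, unadjusted p = 0.103, adjusted p = 0.9999 by edgeR). Gad1 was at 5.78, 47.2, 25.3 and 42.5 CPM, all below the normal median of 80.1 CPM, where the normal rats ranged from 0 to 252. The groups overlapped for both genes.

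The 3 smallest p values belonged to Nyx, Calb2 (given above) and Pou4f2, and of these Nyx and Pou4f2 were sparse. Nyx was at 0, 3.20, 0.904 and 0 CPM in the pre-dropout rats, against 0 to 52.6 CPM with a median of 5.48, and its log2 fold change was -3.55 (SE 2.01, unadjusted p = 0.0851, adjusted p = 0.9999 by edgeR). Pou4f2 was counted only in T389M of the 4, at 0.984 CPM, and in 12 of 24 normal rats at up to 27.8 CPM, with a log2 fold change of -3.98 (SE 2.43, unadjusted p = 0.109, adjusted p = 0.9999 by edgeR). Nyx was at 0 in 2 of the 4 pre-dropout rats and Pou4f2 in 3, so these fold changes rest on few rats with a count. By DESeq2 they were -3.71 and -4.28, and without T389M -5.13 and -7.24 by edgeR.

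Of the 4 horizontal and 6 ganglion genes tested, 3 and 4 had estimates above 0, unlike most of the further markers of these cells. Calb1 was at 4.09, 44.3, 27.4 and 18.01 CPM in the pre-dropout rats and at 0 to 173 CPM (median 23.9) in the normal rats. Lhx1 was at 0.241, 10.6, 4.52 and 0 CPM, against 0 to 15.98 CPM (median 0). Nefl was at 19.3, 449, 163 and 60.0 CPM, against 3.14 to 438 CPM (median 92.8). Nefm followed it at 11.8, 284, 83.4 and 44.2 CPM, against 0.752 to 400 CPM (median 49.6). T389M was the highest of all 28 rats for Nefl, and T353M the lowest of the 4 for both neurofilament genes. Sncg gave the highest estimate of the 27 genes, 1.01 (SE 1.38), from 2.41, 33.0, 29.8 and 55.8 CPM in the pre-dropout rats against 0 to 75.1 CPM (median 3.41). The log2 fold changes were 0.36 (SE 0.69) for Nefl and 0.03 (SE 0.78) for Nefm, with adjusted p = 0.9999 by edgeR.

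Class scores gave the same account. The bipolar score was 2.89 ± 1.02 (SD, n = 4) in pre-dropout and 3.13 ± 1.59 (n = 24) in normal rats, and the amacrine score 2.94 ± 1.41 and 3.70 ± 1.59. The horizontal score was 2.26 ± 1.18 and 1.56 ± 1.36, and the ganglion score 3.40 ± 1.05 and 3.17 ± 0.921. Each difference was smaller than 1 SD of the normal rats. The bipolar difference of -0.25 became 0.31 among males only and 0.21 without T407M, and the ganglion difference of 0.23 became -0.18 without T389M. The rod score ranged from 2.89 to 4.79 in pre-dropout and 1.77 to 7.55 in normal rats.

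**Figure D5:**
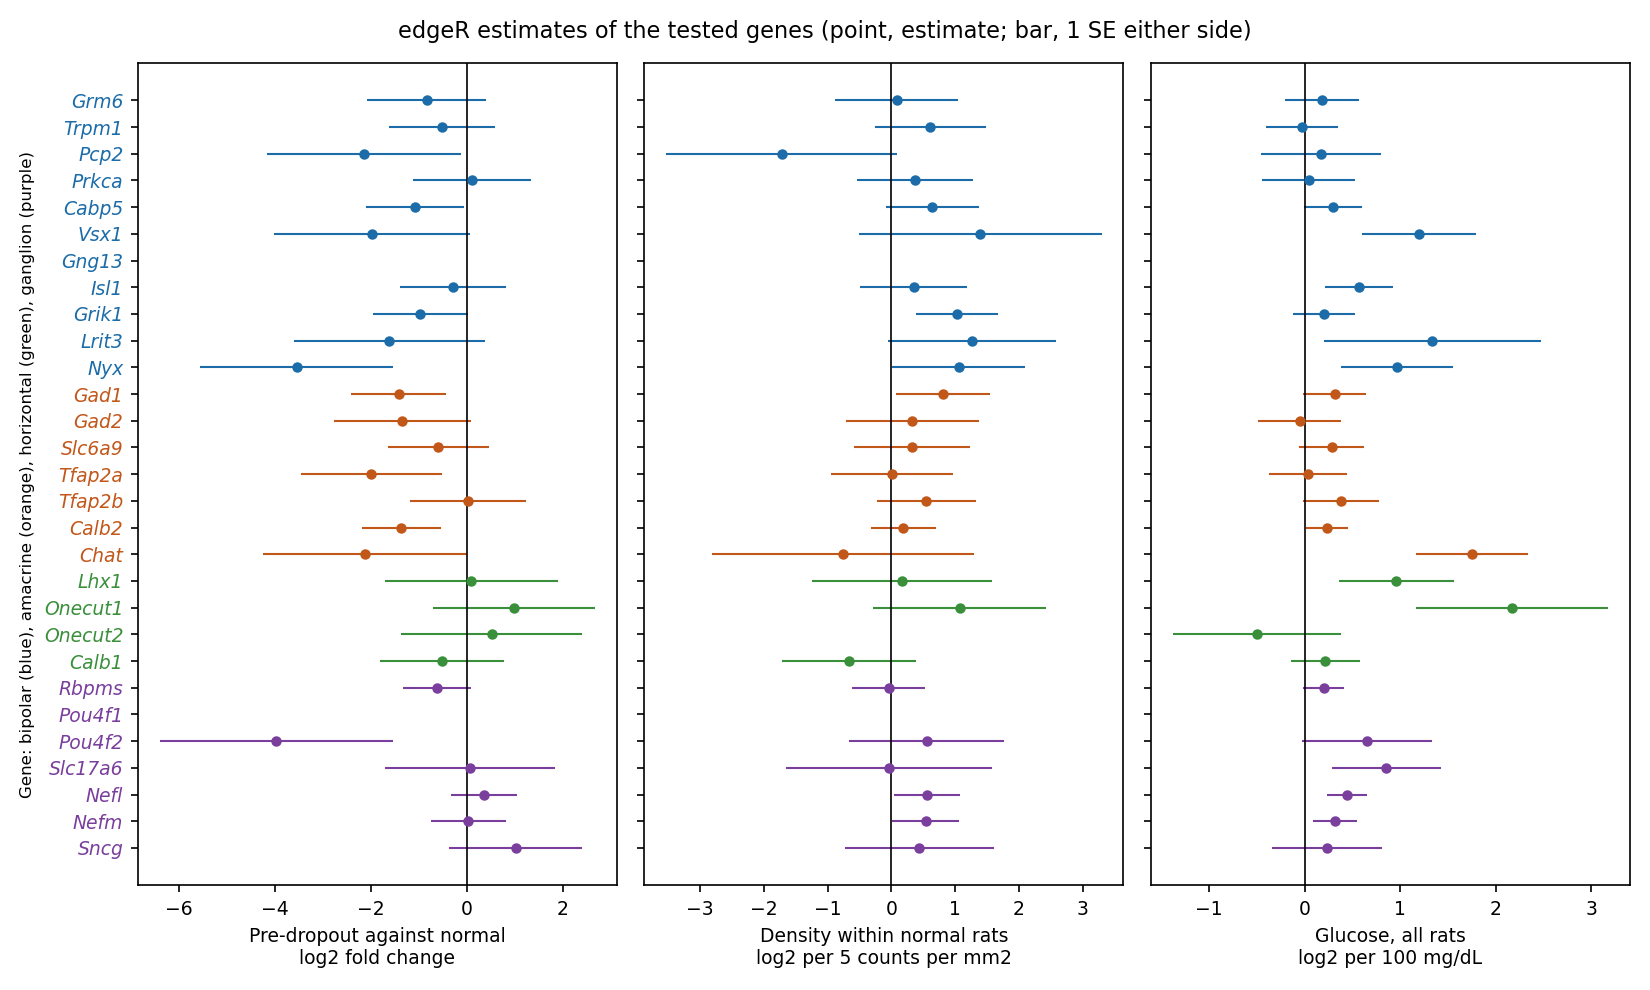
edgeR estimates of the tested genes with 1 SE either side: log2 fold change of pre-dropout against normal rats (27 genes), log2 slope per 5 counts per mm2 within the 24 normal rats (26 genes) and log2 slope per 100 mg/dL glucose over 28 rats (27 genes). Most bipolar and amacrine points lie left of 0 in the first panel and right of 0 in the others.

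Within the normal range, the genes did not change detectably with capillary density. The slope was fitted in the 24 normal rats with sex as a covariate, and edgeR called 0 of 26 genes at an adjusted p under 0.05, as it did 0% of 13677 genes. DESeq2, limma-voom and limma on log2(TPM + 1) called 0 as well, with 0, 0 and 1 at an unadjusted p under 0.05. With edgeR, at an unadjusted p under 0.05 there were 0 of the 26, against 1.12% of all genes. Slopes were above 0 for 21 of the 26 genes with a median of 0.41 per 5 counts per mm2, beside 56.3% of all genes and a median of 0.09. Without the covariate 8 of 25 were below 0 and the median was 0.21. This comparison shares its normal rats with the one before it.

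Grik1 had the smallest p for density, with a slope of 1.03 (SE 0.65, unadjusted p = 0.121, adjusted p = 1 by edgeR). T393F, at 6.03 counts per mm2, had 533 CPM of Grik1 and T398F, the normal rat of highest density, 531 CPM, while T411M, the lowest in density, had 5.26 CPM. Gad1 had a slope of 0.81 (SE 0.74) and Nefl of 0.56 (SE 0.52), with adjusted p = 1 by edgeR. Without the covariate the slopes were 0.60 for Grik1, 0.34 for Gad1 and 0.21 for Nefl, and over all 28 rats 0.50, 0.18 and 0.78. High values of Grik1 thus stood at both ends of the range. Slopes of the 26 genes lay between -1.72 (SE 1.81) for Pcp2 and 1.39 (SE 1.90) for Vsx1, both sparse.

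Other cells moved beside these slopes. Of the rod genes, 13 of 14 had slopes above 0 (median 1.31), and so did 11 of 12 cone genes (1.43) and 19 of 20 pan-neuronal genes (0.56). Among the further markers, 17 of 17 other bipolar genes (0.84), 13 of 16 other amacrine genes (0.81), 3 of 5 other horizontal genes (0.66) and 7 of 14 other ganglion genes (0.04) were above 0. Slopes were below 0 for 13 of 14 endothelial genes (-0.33) and for 9 of 11 genes of pericytes and smooth muscle (-0.28). Their part in the slopes of the inner retinal genes was not tested.

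For blood glucose, no gene passed the test, and 3 had an unadjusted p under 0.05. The slope was fitted over all 28 rats with sex as a covariate, and edgeR called 0 of 27 genes at an adjusted p under 0.05, beside 0% of 13800 genes. The genes at an unadjusted p under 0.05 were Chat, Onecut1 and Nefl, beside 3.8% of all genes. DESeq2 had 5 and limma-voom 2, with 0 called by either. Slopes were above 0 for 24 of 27 genes with a median of 0.30 per 100 mg/dL, beside 52.4% of all genes. They lay between -0.50 (SE 0.88) for Onecut2 and 2.17 for Onecut1. Without the covariate 11 of 27 were below 0 and the median was 0.06.

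Chat rested on a single rat. In the 5 rats above 200 mg/dL it was at 0 (T370M), 0 (T389M), 0.904 (T391M), 0 (T392F) and 10.4 CPM (T446M), and in the other 23 at 0 to 5.89 CPM with a median of 0. Its slope was 1.75 (SE 0.58, unadjusted p = 0.00451, adjusted p = 0.866 by edgeR), and without T446M it was 0.53 (SE 0.57, unadjusted p = 0.359). Counts of this acetylcholine gene were present in 2 of the 5 rats and in 5 of the 23.

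The slopes of Onecut1 and Nefl were 2.61 and 0.48 without T446M, but depended on the fit. Without the covariate they were 0.33 and 0.15, and Onecut1 had 0.58 by limma-voom and 0.43 by limma on log2(TPM + 1). Onecut1 was at 9.51, 14.02, 9.64, 0 and 0 CPM in T370M, T389M, T391M, T392F and T446M, and at 0 to 13.3 CPM (median 0) in the others, with a slope of 2.17 (SE 1.01, unadjusted p = 0.0369, adjusted p = 1 by edgeR). Nefl was at 93.2, 449, 163, 118 and 101 CPM in the same rats, all above the median of 80.9 CPM of the other 23, which ranged from 3.14 to 438. Its slope was 0.44 (SE 0.21, unadjusted p = 0.0398, adjusted p = 1 by edgeR), and without T389M it was 0.12 (SE 0.25). T389M is also a pre-dropout rat and held the highest glucose. Genes of pericytes and smooth muscle were below 0 in 12 of 12 slopes (median -0.18), and 12 of 14 rod genes were above 0 (0.20); their part was not tested.

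Male and female rats were compared because every pre-dropout rat was male. Among the normal rats edgeR called 0 of 24 tested genes between the 8 males and 16 females, beside 0.0247% of 12162 genes (3 genes). The log2 fold change was below 0 in males for 20 of 24 genes with a median of -0.68, beside 52.3% of all genes, and with library total and number of genes counted as covariates for 12 of 27. At an unadjusted p under 0.05 there were Nefl and Nefm, beside 4.38% of all genes. DESeq2 called 0 of the genes, and limma-voom with sample weights called 2, Tfap2a and Onecut1, both lower in males, where it called 725 of all genes.

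Neurofilament genes led that comparison. Nefl ranged from 4.55 to 143 CPM with a median of 75.9 in normal males and from 3.14 to 438 with a median of 105 in females, with a log2 fold change of -1.19 (SE 0.57, unadjusted p = 0.0422, adjusted p = 0.995 by edgeR). Nefm ranged from 0.752 to 173 CPM (median 32.2) in males and from 9.40 to 400 (median 71.2) in females, with -1.32 (SE 0.63, unadjusted p = 0.0446, adjusted p = 0.995 by edgeR). Vsx1 was counted in 2 of 8 males and 10 of 16 females, with -1.94 (SE 1.49, unadjusted p = 0.202, adjusted p = 0.995 by edgeR). The ranges overlapped for all of these genes. Libraries of normal males held fewer genes, 10478 ± 1659 (SD, n = 8) against 12104 ± 2528 (n = 16) in females, and fewer of the 29, 16.6 ± 5.32 against 20.5 ± 6.79; the part of this in the sex differences was not tested.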

How the data were processed

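The deposited tables hold expected counts and TPM, which the authors estimated per gene. They were taken as output of their comparative pipeline CRSP, since the identifiers in them are those of mouse genes. Its version is not given in the sources used here. CRSP assembles transcripts and assigns them to mouse genes, so a value rests on that match, and no coordinates or sequences are given. For its marker genes the paper did not use CRSP values but mapped the reads anew to the Nile rat genome. It reported a moderate correlation of TPM between these approaches and lower overdispersion with the genome. The paper proposes that genome mapping is the more reliable. Groups came from the labelled densities, and the glucose unit from the methods.

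Expected counts were rounded and tested with the quasi-likelihood F test of edgeR 4.0.16 under R 4.3.3 (TMM scaling, filterByExpr with a minimum count of 10, Benjamini-Hochberg over all genes). The SE given for an edgeR estimate is its absolute value divided by the square root of F. EBSeq, which the study used, was not installed. CPM used TMM library sizes, and 1 was added before log2. Alternatives used DESeq2 1.42.0 and limma 3.58.1. Correlations ran in Python 3.11.15. The fits were tested on simulated data, and they recovered few changed genes. At 2-fold, 0 of 67 were recovered for the pre-dropout comparison, the density slope and the glucose slope alike. At 16-fold, taken over the whole range for the slopes, 32, 15 and 16 of 66 were recovered in the same order. P-values measure the spread between rats. Genes named are all 29, the 3 with the smallest p in each test, the 5 closest pairs, and the leading genes of each other list. Members and lists were chosen with earlier results of these data known. A few items that the rule names are not reported here.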

Additional observations from a re-analysis of the deposited data

Results flagged for a closer look

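In the 4 pre-dropout rats, 34 quantities were checked for a rat far from the others, and 5 genes had 1 rat apart, each with the other 3 rats at 0. With the other 3 rats at 0, any count sets a rat apart, so these values show sparse detection, and the usual share of about 1 in 20 groups set apart by chance does not apply to them. T391M stood apart for 4 of them, at 8.43 CPM of Pcp2, 2.11 CPM of Gng13, 10.2 CPM of Lrit3 and 0.904 CPM of Chat. T389M stood apart for Pou4f2, at 0.984 CPM. All 5 values lay below the highest normal rat for the same gene, which had 50.9, 7.98, 62.3, 10.4 and 27.8 CPM in the same order. T391M also held the most genes of the 29 among the pre-dropout rats, 27.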

How the results depend on the processing

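Under 249 alternative values, 248 stayed on the same side of their threshold or moved by less than the spread between rats. The exception was the comparison of males with females, where limma-voom with sample weights called 2 of the 29 genes and edgeR 0. The 136 alternative values computed for single genes, which cover the 3 genes of smallest p in each comparison, kept their direction. Others of the 29 did not: of 27 genes, 18 were below 0 in pre-dropout rats by edgeR, but 23 with DESeq2's size factors and 16 with sex as a covariate. No paired analysis was possible because each rat gave 1 library and stood in 1 group only. Over all genes, calls between pre-dropout and normal rats were 0 by edgeR, 5 by DESeq2, 4 by limma-voom, 72 with no filter on low counts and 47 with library total and detected genes as covariates. For the density slope they were 0, and 45 with no filter. For the glucose slope they were 0, 21 by DESeq2 and 152 with no filter. Between the sexes they were 3, 37 by DESeq2, 725 by limma-voom, 6 by limma on TPM, 5 with the covariates and 1 with at least 1 CPM in 12 libraries. With log2(TPM + 1) the median fold change of all genes in pre-dropout rats was 0.08 in place of -0.13. The log2 fold change of Nyx ranged from -5.13 to -1.92 over the alternatives (adjusted p 0.406 to 1), that of Calb2 from -2.68 to -0.88 (0.447 to 1) and that of Pou4f2 from -7.24 to -1.57 (0.447 to 1). The glucose slope of Chat ranged from 0.29 to 5.89, the latter above against below 200 mg/dL (adjusted p 0.150 to 1). That of Onecut1 ranged from 0.33 to 7.37 and that of Nefl from 0.12 to 1.56, and the density slope of Grik1 from 0.50 to 1.36, of Gad1 from 0.18 to 1.14 and of Nefl from 0.21 to 1.501. The median rho within bipolar genes lay between 0.45 and 0.54 and within amacrine genes between 0.39 and 0.60. It was 0.51 and 0.49 when the libraries were thinned to 934248 counts, and 0.45 and 0.39 without the 4 libraries with fewest of the 29 genes, both chosen after seeing the data. Genes counted in at least 14 libraries were 16 at 153111 counts per library and 19 at a minimum of 5 counts, against 23. The 4 pre-dropout rats and a common biological coefficient of variation of 1.32 limit what these tests can detect.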

Other observations

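Genes of other cells in the same preparations, with no comparison made, stood at the following levels. Glial RNA was abundant, with Apoe at a median of 5171 TPM (range 2059 to 10986) and Vim, the intermediate filament of Müller glia and astrocytes, at 2928 TPM, both counted in all 28 libraries. Hemoglobin RNA was present in all 28 as well, with Hbb-bs at 2927 TPM and Hba-a2 at 1353 TPM. Cd68, a lysosomal protein of microglia and macrophages, had 2.997 TPM in 23 libraries. Ttr and Tyrp1, genes of the pigment epithelium, had 1.25 and 1.12 TPM, with a count in 14 and 15 libraries, and Ttr reached 656 TPM in 1 of them. In the vessel wall, Slco1a4, an organic anion transporter of endothelial cells, had 908 TPM and Acta2 385 TPM.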
